A study of Mus musculus with 24 samples.

Results

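The translation initiation and elongation factors printed on this liver array were taken as the probes whose gene symbol in the platform annotation begins with Eif1, Eif2, Eif3, Eif4, Eif5, Eif6, Eef1 or Eef2. The rule found 25 probes for 25 genes, among 10080 probes for 8726 named genes in all, and used no measured value. Male C57Bl/6 mice, 8 weeks old, received 300 µl of phosphate-buffered saline (PBS) under the skin, alone or with 1e+06 LL/2(LLC1) cells, a mouse Lewis lung carcinoma line. Livers were taken 18, 72 or 192 h later. RNA of a tumor liver and of a PBS liver was hybridised to the same 2-colour array, and a dye-swapped array repeated every pair, which gave 4 pairs at each of 3 times on 24 arrays. The labels do not say whether a sample is a single animal, so p-values measure the spread between these pairs. All values are log2 ratios of tumor liver over PBS liver from the authors' deposited value table, averaged over both dye orientations of a pair. Neither the scale nor the direction of that table is stated. The direction rests on taking the first scanner channel as Cy3, and if that is wrong every sign below turns.

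Initiation begins when eIF2 brings the initiator tRNA to the small ribosomal subunit, which carries the multi-subunit scaffold eIF3, and the cap-binding eIF4 proteins recruit the mRNA to it. Phosphorylation of eIF2 by stress-activated kinases slows its recycling by eIF2B and lowers initiation, and the 4E-binding proteins hold eIF4E away from the cap when mTORC1 is inactive. During elongation eEF1A delivers charged tRNAs and eEF2 moves the ribosome on. The liver depends on this machinery for its large output of plasma proteins.

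The name of the group was met only in part by its members. There were 8 eIF3 subunits (Eif3a, Eif3c, Eif3d, Eif3e, Eif3f, Eif3j1, Eif3k and Eif3m) and 3 subunits of eIF2 or eIF2B (Eif2s2, Eif2b1 and Eif2b2). The cap-binding group had 3 genes (Eif4e, Eif4e3 and Eif4h), and the scanning group had Eif1b. Eif1ad was placed beside Eif1b by its symbol, and its role was not examined here. A further member was Eif6, which keeps free large ribosomal subunits apart from small ones. The prefix also brought in regulators: 2 eIF2 kinases (Eif2ak1, the haem-regulated kinase, and Eif2ak3, the endoplasmic reticulum kinase PERK), 2 genes that bind eIF4E (Eif4ebp2, a repressor, and Eif4enif1, its transporter) and methyltransferases of eEF1A (Eef1akmt1, Eef1akmt2 and Eef1aknmt). No probe was named for eEF1A, eEF1B or eEF2 themselves. Eef1e1, a component of the multi-synthetase complex, was the remaining member.

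Measurement was sparse. An array held between 977 and 8894 deposited values, and a member was measured on 4 to 23 of the 24 arrays, with a median of 15. Both orientations were available for 135 of the 300 possible pair values. At 72 h no member was measured in both orientations in pair 3, whose array with tumor RNA in Cy5 was the one with 977 values. In all, 23 members had at least 1 pair, and Eif2b2 and Eef1e1 had none. Only Eif3d, Eif3e and Eif3m had at least 3 of 4 pairs at every time, as the limma test required, among 1362 probes kept in all. Of marker lists, 4 of 5 hepatocyte genes were measured with 0 higher and 4 lower at 18 h (median -0.39), and their medians at 72 and 192 h were -0.04 and -0.0071. Kupffer cell genes were higher for 7 of 7, 6 of 7 and 5 of 6 at 18, 72 and 192 h (medians 0.05, 0.08 and 0.03), and neutrophil genes for 3 of 3, 2 of 2 and 2 of 2 (medians 0.08, 0.16 and 0.16). Endothelial genes were higher for 0 of 2, 1 of 2 and 1 of 1. Stellate genes were higher for 0 of 2, 0 of 2 and 0 of 1. Lymphocyte genes had 1 of 4, 3 of 5 and 1 of 2 higher. Cholangiocyte genes had 2 of 4, 2 of 3 and 1 of 1 higher. Of all probes with at least 2 pairs, 46.6%, 46.5% and 45.7% were higher. Only 2 hepatocyte, 4 Kupffer cell, 1 neutrophil, 1 endothelial and 1 cholangiocyte probes entered the limma test. Of these 0 were called, where 0% of the 1362 probes were. The part of these cell types in the values below was not tested. In these whole-liver samples fewer cells of a type and less RNA per cell cannot be told apart.

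The promoters of the members on which the results turn are shown first, as 250 bases before and 30 bases from the annotated RefSeq start (assembly GRCm38.p6), 5′ to 3′ on the gene's strand. Capitals mark matches on either strand to the letters searched: the GC box GGGCGG, the CCAAT box CCAAT, the E-box CACGTG, the ETS site CCGGAAGT, the YY1 site AAGATGGCG and the NRF1 site, a palindrome given here by name alone. A run of at least 5 pyrimidines opening with C within 10 bases of the start, as mRNAs of the translation machinery often carry, is also in capitals. The promoters shown were chosen after the values were seen, and the pyrimidine rule was added after the sequence of Eif3f was seen. The table held no entry for Eif3e.
Eif3c (chr7:126566337-126566616, minus strand): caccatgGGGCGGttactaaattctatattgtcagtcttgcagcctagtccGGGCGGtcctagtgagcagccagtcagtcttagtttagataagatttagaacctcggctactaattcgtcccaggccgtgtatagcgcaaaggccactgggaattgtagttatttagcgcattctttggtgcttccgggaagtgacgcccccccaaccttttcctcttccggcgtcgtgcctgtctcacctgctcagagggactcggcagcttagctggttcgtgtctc
Eif3d (chr15:77970795-77971074, minus strand): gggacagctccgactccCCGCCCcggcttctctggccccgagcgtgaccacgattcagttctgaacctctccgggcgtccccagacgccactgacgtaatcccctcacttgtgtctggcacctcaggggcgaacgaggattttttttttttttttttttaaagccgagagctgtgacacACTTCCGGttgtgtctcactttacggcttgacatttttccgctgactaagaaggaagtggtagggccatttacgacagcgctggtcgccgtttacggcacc
Eif3f (chr7:108934165-108934444, plus strand): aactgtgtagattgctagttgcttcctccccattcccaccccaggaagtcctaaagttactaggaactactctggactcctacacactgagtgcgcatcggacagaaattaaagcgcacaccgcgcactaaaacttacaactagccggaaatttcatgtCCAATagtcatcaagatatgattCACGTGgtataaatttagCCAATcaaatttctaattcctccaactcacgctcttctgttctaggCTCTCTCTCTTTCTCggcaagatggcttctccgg
Eif3m (chr2:105016998-105017277, minus strand): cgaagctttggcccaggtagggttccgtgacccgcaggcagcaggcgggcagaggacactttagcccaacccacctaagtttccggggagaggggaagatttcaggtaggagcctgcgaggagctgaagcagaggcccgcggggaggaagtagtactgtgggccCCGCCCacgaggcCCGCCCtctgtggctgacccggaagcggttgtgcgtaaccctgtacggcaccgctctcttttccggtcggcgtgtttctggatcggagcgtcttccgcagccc
Eif4h (chr5:134639380-134639659, minus strand): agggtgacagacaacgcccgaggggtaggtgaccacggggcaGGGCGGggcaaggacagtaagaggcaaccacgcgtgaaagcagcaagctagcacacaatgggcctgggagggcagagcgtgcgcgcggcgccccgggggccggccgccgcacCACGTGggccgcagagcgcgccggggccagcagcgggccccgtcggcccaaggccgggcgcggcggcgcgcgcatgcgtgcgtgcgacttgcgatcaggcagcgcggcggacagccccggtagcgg
The Eif3f start lay in a run of 15 pyrimidines that began 4 bases before it. In the other 4 promoters no such run was found by the rule. RefSeq held promoters for 21 of the 25 members, counted over the full 300 bases of the table against 17492 protein-coding genes. The E-box letters were in 7 of 21 members and 8.91% of all genes, and the GC box in 15 of 21 and 49.2%. The pyrimidine run was in 8 of 21 members and 35.4% of genes, CCAAT in 9 of 21 and 42.3%, and the ETS letters in 3 of 21 and 5.69%. The YY1 letters were in 2 of 21 members and 2.14% of genes, and the NRF1 letters in 1 of 21 and 1.47%. A match is a description of these letters, not a site.

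No translation factor passed the test at any time. Of the 3 tested members, 0 of 3 were called by limma with Benjamini-Hochberg adjustment at 18, 72 and 192 h, in the mean of the times and between times, where 0% of the 1362 probes were called. At an unadjusted p under 0.05, probes made up 7.12%, 5.21% and 3.67% at 18, 72 and 192 h, and 9.4%, 1.69%, 4.11% and 3.52% in the mean of the times, 72 minus 18 h, 192 minus 18 h and 192 minus 72 h. Of the 3 members 0 did so, other than Eif3m in 192 minus 18 h. Over members with at least 2 pairs, 9 of 19 were higher at 18 h with a median of -0.0085, beside 46.6% of all probes and a median of -0.0059. At 72 h 9 of 19 were higher with a median of -0.0059, beside 46.5% of probes and a median of -0.0056. At 192 h 4 of 8 were higher with a median of 0.0009, beside 45.7% of probes and -0.0074.

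**Figure D1:**
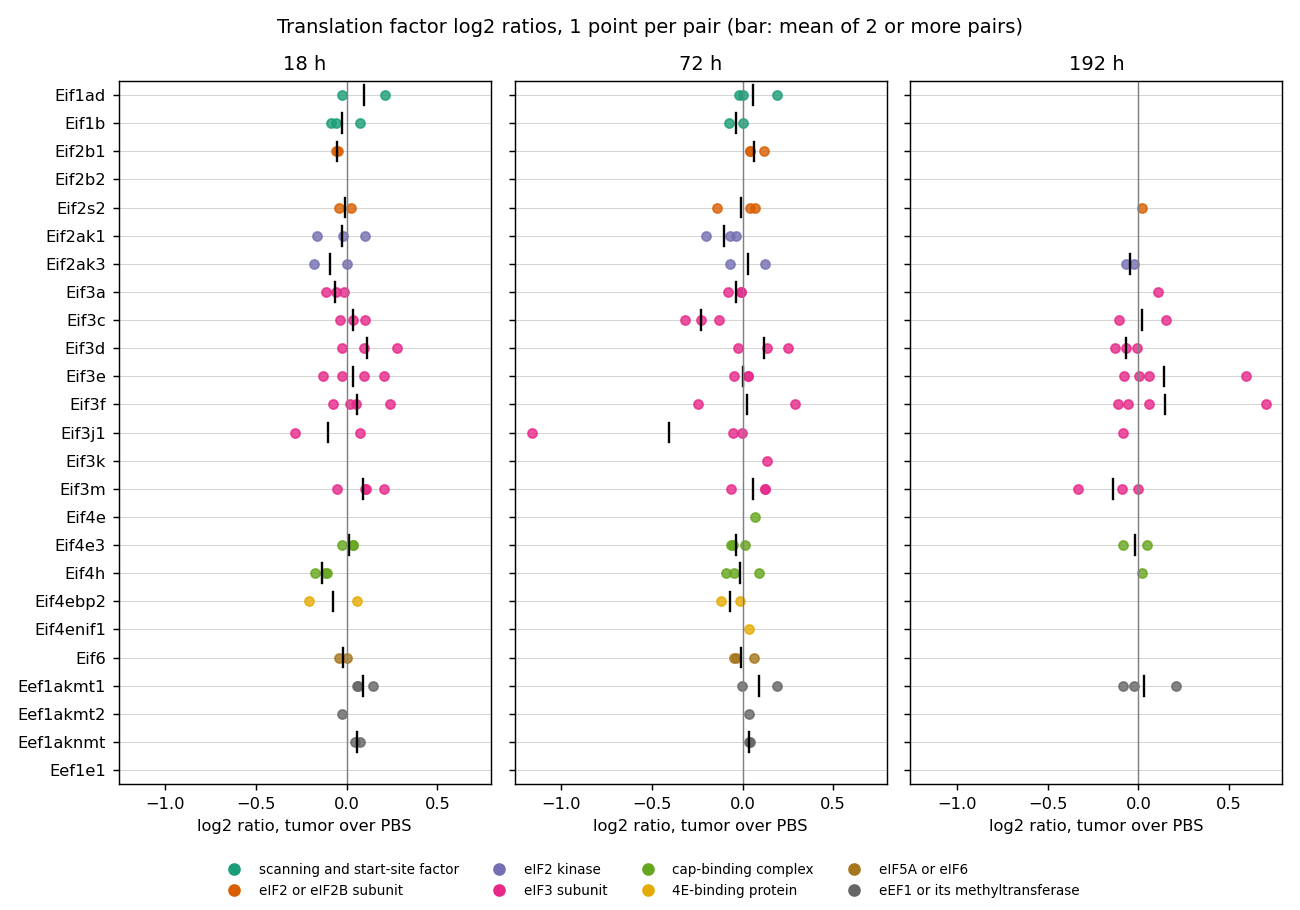
Each point is the log2 ratio of tumor over PBS liver for 1 pair, by member and coloured by role, in panels for 18, 72 and 192 h; black bars are means of 2 or more pairs. Points cluster around 0, with Eif3j1 at -1.16 in a 72 h pair and Eif3e and Eif3f at 0.59 and 0.70 in a 192 h pair standing apart.

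Most single values were small. Of the 135 pair values, 89 lay within 0.1 of 0 and 8 beyond 0.25, and all 8 belonged to eIF3 subunits. The share of all probes within these bounds was not computed, so these counts do not set eIF3 subunits apart. The members with most pairs were eIF3 subunits (Eif3e with 11, Eif3f and Eif3m with 10, Eif3d with 9). Among the 8, Eif3e at 0.59 and Eif3f at 0.70 came from 192 h pair 1, where all 3 measured members were eIF3 subunits. The SD over all probes in that pair was 0.314, beside 0.101 to 0.197 in the other pairs. The half-difference between the dye orientations of a pair was larger than the pair's ratio in 65 of 135. That half-difference holds any dye effect of the probe, which cancels in the mean, besides measurement error. The sign in the scanner tables was the same for 98 of the 135.

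Eif3d, an eIF3 subunit that can itself bind the cap, had 0.09, 0.28 and -0.03 in pairs 1, 3 and 4 at 18 h. At 72 h pairs 1, 2 and 4 had 0.13, 0.25 and -0.03, and at 192 h pairs 2, 3 and 4 had -0.13, -0.07 and -0.0075. The early pairs lay on both sides of 0 and overlapped the late ones, all of which were below it, also in the scanner tables. The fitted log2 ratio was 0.11 ± 0.071 (SE, n = 3; limma adjusted p = 0.781) at 18 h, 0.12 ± 0.071 (n = 3; limma adjusted p = 0.958) at 72 h and -0.07 ± 0.071 (n = 3; limma adjusted p = 0.997) at 192 h. Single pairs decided the early sizes: the 18 h value was 0.03 without pair 3 and 0.18 without pair 4, and the 72 h value was 0.05 without pair 2 and 0.19 without pair 4. The 192 h value was -0.04 without pair 2. In 192 h pair 1 the only measured array, with tumor RNA in Cy3, read 0.25. A fit over every measured array, with a dye term, gave -0.0058 at 192 h.

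Eif3m, a subunit of the same complex, had 0.10, -0.05, 0.21 and 0.11 in pairs 1 to 4 at 18 h. Its 72 h pairs 1, 2 and 4 had 0.12, 0.12 and -0.07, and its 192 h pairs 2, 3 and 4 had -0.33, -0.0031 and -0.09. The late pairs were all below 0 while the early ones were mixed, but the scanner tables put 192 h pair 3 at 0.20. The fit gave 0.09 ± 0.063 (SE, n = 4; limma adjusted p = 0.781) at 18 h, 0.06 ± 0.073 (n = 3; limma adjusted p = 0.995) at 72 h and -0.14 ± 0.073 (n = 3; limma adjusted p = 0.997) at 192 h. The difference between 192 and 18 h was -0.23 ± 0.096 (95% interval -0.44 to -0.02), with an unadjusted p of 0.0365 and a limma adjusted p of 1.00, where 4.11% of probes had an unadjusted p under 0.05. Without 192 h pair 2 this difference was -0.14 and the 192 h value -0.05. Without 18 h pair 3 the 18 h value was 0.05 and without 18 h pair 2 it was 0.14. The 72 h value was 0.03 without pair 1 or pair 2 and 0.12 without pair 4. In 192 h pair 1 the only measured array, with tumor RNA in Cy5, read 0.12. The fit over every measured array, with a dye term, gave -0.097 at 192 h.

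The mRNA of the subunit Eif3e, like those of Eif3a and Eif3f, is counted in the terminal oligopyrimidine class. Eif3e had -0.03, -0.13, 0.20 and 0.09 at 18 h. Pairs 1, 2 and 4 at 72 h had -0.05, 0.03 and 0.03, and the 192 h pairs had 0.59, -0.08, 0.06 and 0.0008. Apart from the first 192 h pair, the values lay on both sides of 0 and reached furthest in 18 h pairs 2 and 3. The fit gave 0.04 ± 0.093 (SE, n = 4; limma adjusted p = 0.963) at 18 h, 0.0023 ± 0.11 (n = 3; limma adjusted p = 0.998) at 72 h and 0.14 ± 0.093 (n = 4; limma adjusted p = 0.997) at 192 h. Without 192 h pair 1 the last value was -0.0058. In that pair Eif3e and Eif3f stood above 98.5% and 99.5% of 1237 probes.

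Eif3f was measured in all 18 h pairs at 0.02, -0.07, 0.24 and 0.05, and in 72 h pairs 1 and 4 at 0.29 and -0.24. Its 192 h pairs had 0.70, -0.12, 0.06 and -0.06. The first 192 h pair again stood far above the other three. The 192 h mean was 0.15 ± 0.38 (SD, n = 4), with too few pairs at 72 h for the test.

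Eif3c, a core scaffold subunit, had 0.03, 0.10 and -0.04 in pairs 1, 3 and 4 at 18 h. At 72 h pairs 1, 2 and 4 had -0.23, -0.32 and -0.13, and at 192 h pairs 1 and 4 had -0.11 and 0.15. The 72 h pairs were all below every 18 h pair, a split whose share among all probes was not computed. The 72 h mean was -0.23 ± 0.093 (SD, n = 3), and the scanner tables gave -0.20, -0.61 and -0.53 in the same pairs. With probes of at least 2 pairs at each time admitted, limma gave an adjusted p of 0.819 over 2957 probes (unadjusted p = 0.00617). In the array-level fit, which used every measured array with a dye term, the value was -0.20 with a limma adjusted p of 0.494. At 72 h Eif3c read lower with tumor RNA in Cy5 (-0.52, -0.39 and -0.20) than in Cy3 (0.06, -0.24 and -0.07). Its half-difference was negative in 8 of 8 pairs, and a dye effect of that kind cancels in the pair mean.

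Eif3a, the largest scaffold subunit, had -0.11, -0.06 and -0.02 in pairs 1, 3 and 4 at 18 h and -0.01, -0.08 and -0.0076 in pairs 1, 2 and 4 at 72 h. Its only 192 h pair, pair 3, had 0.11. The 18 h and 72 h pairs were below 0 and the 192 h pair above it, whereas the scanner tables put 1 of the 18 h pairs and 2 of the 72 h pairs above 0 and 192 h pair 3 at -0.36. Eif3j1, a loosely bound subunit with a near-identical gene copy with which its probe may share signal, had -0.29 and 0.08 at 18 h and -0.05, -1.16 and -0.0017 at 72 h. The outlying 72 h pair had -2.18 in one orientation and -0.15 in the other. Eif3k had a single pair, at 0.13.

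The 13 members with 3 or more pairs at 72 h included 1 with every pair above 0 (Eif2b1), where 9.03% of probes were so, and 4 with every pair below 0 (Eif2ak1, Eif3a, Eif3c and Eif3j1), where 16% were so. At 18 h 1 of 11 was above in every pair (Eef1akmt1; 13.5% of probes) and 2 below (Eif3a and Eif4h; 18%). At 192 h 0 of 5 were above (5.76%) and 2 below (Eif3d and Eif3m; 8.13%). Whether these counts differ from the share among all probes was not tested.

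No gene of the eIF2 branch had enough pairs for the test. Eif2s2, the beta subunit of eIF2, had -0.04 and 0.03 at 18 h, -0.14, 0.07 and 0.04 at 72 h and 0.02 in a 192 h pair. The scanner tables read it differently, higher in all 3 of their 18 h pairs (mean 0.19 ± 0.15, SD), lower in all 3 at 72 h (-0.31 ± 0.21) and higher in both at 192 h (0.44 ± 0.27). Eif2b1, the alpha subunit of the exchange factor eIF2B, had -0.05 and -0.06 in pairs 3 and 4 at 18 h and 0.04, 0.12 and 0.04 in pairs 1, 2 and 4 at 72 h. The scanner tables put those 72 h pairs at 0.22, -0.05 and -0.23, on both sides of 0. Eif2ak1 had -0.02, -0.17 and 0.10 at 18 h and -0.07, -0.20 and -0.04 at 72 h, a 72 h mean of -0.10 ± 0.088 (SD, n = 3). Its 72 h pairs were also all lower in the scanner tables (-0.31 ± 0.25). Eif2ak3 (PERK) had -0.18 and 0.0008 at 18 h, -0.07 and 0.12 at 72 h and -0.03 and -0.07 at 192 h. Of 8 listed genes whose mRNAs respond to eIF2 phosphorylation, 1 could be tested and 0 were called. That gene was Cebpb, a liver transcription factor, at -0.25 ± 0.10 at 72 h (limma adjusted p = 0.935).

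In the cap-binding group, Eif4h, which stimulates the helicase eIF4A, had -0.11, -0.18 and -0.12 in pairs 1, 3 and 4 at 18 h. At 72 h pairs 1, 2 and 4 had -0.09, -0.04 and 0.09. The 18 h pairs were all lower, also in the scanner tables (-0.42, -0.36 and -0.11), and below the 72 h pairs. The share of all probes with such a split between 18 and 72 h was not computed. The 18 h mean was -0.14 ± 0.036 (SD, n = 3), and with no filter on missing values the limma adjusted p was 0.738. The 18 h arrays with tumor RNA in Cy3 read -0.30, -0.21 and -0.28, beside 0.08, -0.14 and 0.04 with tumor RNA in Cy5. The half-difference of Eif4h was positive in 7 of 7 pairs, and a dye effect of that kind cancels in the pair mean. Eif4e3, a cap-binding relative of eIF4E, stayed between -0.09 and 0.04 in 8 pairs. Eif4e itself, with a single pair, had 0.07. Eif4ebp2 had 0.06 and -0.21 at 18 h and -0.12 and -0.02 at 72 h, and Eif4enif1 had 0.03 in a single pair.

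The remaining members lay on both sides of 0 or had few pairs. Eif1ad ranged from -0.03 to 0.21 over 5 pairs and Eif1b from -0.09 to 0.07 over 5. Eif6 had -0.04 and -0.0007 at 18 h and -0.04, 0.06 and -0.05 at 72 h. Eef1akmt1 had 0.06, 0.14 and 0.06 in pairs 1, 3 and 4 at 18 h, 0.19 and -0.0038 in pairs 2 and 4 at 72 h and -0.08, -0.03 and 0.21 in pairs 2, 3 and 4 at 192 h. It was higher in every 18 h pair and mixed afterwards. Eef1aknmt lay between 0.04 and 0.07 in all 4 of its pairs, and Eef1akmt2 had -0.03 and 0.03.

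Across pairs, the ratios of the eIF3 subunits Eif3d, Eif3e, Eif3f and Eif3m correlated with those of the ribosomal proteins, with r of 0.798 to 0.887. This relation was noticed in the values and then computed on the same values, so its p-values describe that observation and are no independent support for it. It was computed for the 13 members with at least 6 pairs, against the median log2 ratio of the ribosomal protein probes in the same pair. That median was 0.03, -0.15, 0.21 and 0.07 in the 18 h pairs. It was 0.10, 0.07, 0.14 and -0.05 at 72 h and 0.32, -0.11, 0.01 and 0.03 at 192 h. It was highest in 192 h pair 1 and 18 h pair 3, and lowest in 18 h pair 2 and 192 h pair 2.

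For Eif3e the Pearson r was 0.871 over 11 pairs (permutation p = 0.00074, adjusted over the 13 relations 0.00962), with a Spearman rho of 0.642 (permutation p = 0.0378, adjusted 0.119). For Eif3f r was 0.887 over 10 pairs (permutation p = 0.00186, adjusted 0.0121) and rho 0.863 (adjusted 0.0152). For Eif3d r was 0.828 over 9 pairs (exact permutation p = 0.00335, adjusted 0.0145) and rho 0.912 (adjusted 0.0152). For Eif3m r was 0.798 over 10 pairs (permutation p = 0.0045, adjusted 0.0146) and rho 0.845 (adjusted 0.016). All tests were two-sided.

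Leaving out the 2 pairs farthest from the median lowered r to 0.638 for Eif3e, 0.691 for Eif3f and 0.591 for Eif3d, while Eif3m had 0.913. Within replicates 1 and 2 r was 0.888, 0.97, 0.914 and 0.777 for Eif3e, Eif3f, Eif3d and Eif3m, and within replicates 3 and 4 it was 0.915, 0.896, 0.909 and 0.895, each over 4 to 6 pairs. These are parts of the pairs in which the relation was noticed, for members named because their r was high, and so are no replication of it. With the scanner values of the members r was 0.664, 0.747, 0.739 and 0.581. Eif4h ran the other way, with r = -0.841 over 7 pairs (exact permutation p = 0.00873, adjusted 0.0227), but its rho of -0.714 had an adjusted p of 0.191 and r was -0.49 without the 2 farthest pairs. The other 8 relations had adjusted p above 0.05, among them Eif3c at r = 0.02 over 8 pairs and Eif3a at -0.32 over 7.

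The members and the ribosomal proteins were read on the same arrays, and r above 0.7 was not confined to these members. It was found for 8.08% of 3912 probes with at least 6 pairs, beside 4 of 13 members. The 3912 leave out ribosomal probes and include the 13 members. They were not matched for the number of pairs, which was 9 to 11 for the 4 members, so the shares are not like for like. These 4 members, with Eef1akmt1, were also the brightest of the 25, with a median total over background intensity of 2.11 to 2.37. Among the 751 probes between 2 and 2.5 in that measure, 7.19% had r above 0.7, again without matching for the number of pairs. In this relation the tumor and other differences between the livers of a pair cannot be told apart. The ribosomal probes themselves were higher for 18, 19 and 15 of 21 tested at 18, 72 and 192 h, with medians of 0.07, 0.07 and 0.06, and 0 were called. Of the 1362 probes tested, 42.8%, 41.85% and 45.3% were higher. The 21 probes were read on the same arrays and are not independent, and the ribosomal pair medians lay on both sides of 0 at each time.

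**Figure D2:**
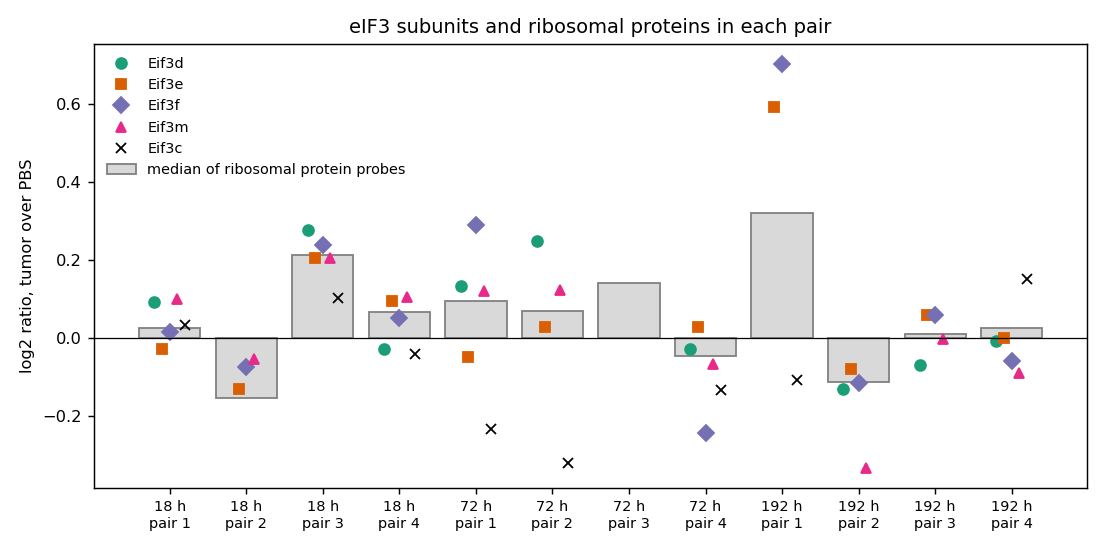
Grey bars give the median log2 ratio of the ribosomal protein probes in each of the 12 pairs, and symbols give the eIF3 subunits in the same pair. Eif3d, Eif3e, Eif3f and Eif3m are above 0 in 18 h pair 3 and below it in 192 h pair 2, as the bars are, with some far beyond the bar (Eif3f at 0.70 for a bar of 0.32 in 192 h pair 1), while Eif3c lies at -0.23 and -0.32 in 72 h pairs whose bars are above 0.

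Of the other translation genes listed, 0 were called at any time. Of 9 cytosolic aminoacyl-tRNA synthetases, which charge tRNAs, 3 were tested, with medians of 0.07, -0.01 and 0.09. Of 11 genes of mTORC1 signalling 2 were tested, with medians of -0.03, -0.06 and -0.04. Of 4 termination and recycling genes 1 was tested (Denr, at 0.06, -0.10 and 0.04), and of 3 mitochondrial factors 0.

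Several members carried a dye term that held its sign. The half-difference between orientations (tumor in Cy5 minus tumor in Cy3) was on 1 side of 0 in every pair for 4 of the 13 members with at least 6 pairs, beside 17% of 3946 such probes. It was positive in 8 of 8 pairs for Eif4e3 and 7 of 7 for Eif4h, and negative in 8 of 8 for Eif3c and 6 of 6 for Eif2s2. Eif2s2 had a mean half-difference of -0.17 beside a mean absolute ratio of 0.06. In the array-level fit the dye term was called for 2 of 9 members, Eif3c at -0.12 (limma adjusted p = 0.00212) and Eif4e3 at 0.08 (limma adjusted p = 0.00317), beside 30.4% of 3639 probes. Such a term cancels in a pair with both orientations.

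**Figure D3:**
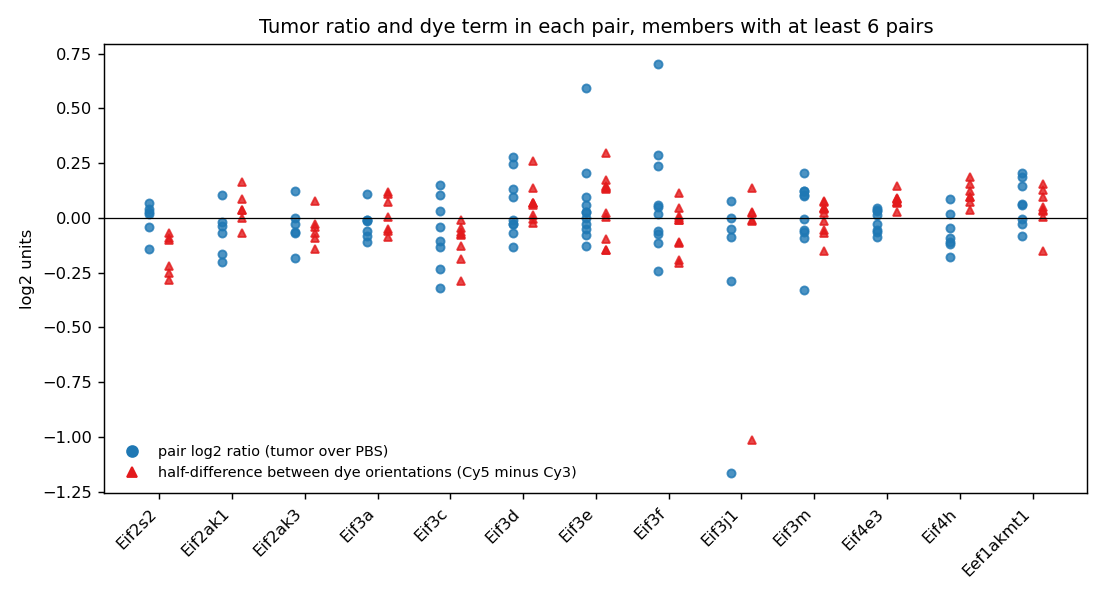
For each member with at least 6 pairs, blue circles are the pair log2 ratios of tumor over PBS and red triangles are the half-differences between dye orientations in the same pairs, both in log2 units. The triangles of Eif2s2 and Eif3c lie below 0 and those of Eif4e3 and Eif4h above it, while the circles of the same members fall on both sides.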

How the data were processed

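The log2 ratios of the deposited value table were made by the authors, and their software is not given in the sources used here. The table's scale, centring and direction are unstated. Array medians lay between -0.0334 and 0.00949, the values correlated with the scanner tables at 0.506 to 0.842, and dye-swapped columns were already turned the same way. On bright spots their spread was 0.71 to 0.99 of that of log2 ratios of total intensity, from which a log2 scale was inferred. The scanner tables give background-corrected intensity per channel in 3 scans, per the file headers, with a saturation factor that is a fraction. Dye-swapped arrays of a pair were averaged and counted as 1 replicate. Linear models from limma 3.58.1, run in R 4.3.3 with tables read by its data.table package (1.17.8), were fitted on 1362 probes with both orientations in at least 3 of 4 pairs at each time, with a coefficient per time, two-sided p and Benjamini-Hochberg adjustment, threshold 0.05. The script was tested on simulated data: of 100 probes changed by a log2 of 0.25 it recovered 58%, 55% and 62% at 18, 72 and 192 h, and of 100 changed by 0.5 it recovered 96%, 95% and 95%. Both sets were changed at once among the 1362 probes, with independent noise, and there were 4, 9 and 9 false calls. So many changed probes loosen the Benjamini-Hochberg cutoff, so these shares do not hold for a lone changed member. Correlations used SciPy 1.17.1 (Python 3.11.15), with exact enumeration under 10 pairs and 100000 resamples otherwise.

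Symbols came from the platform annotation, and all 25 Entrez identifiers matched the RefSeq list. Promoters came from RefSeq. Members and lists were chosen with earlier results of these data known. Named were all members, with full statistics for the tested ones, pair values for members with 2 pairs at 2 times, and up to 2 genes of other lists. Single-pair values and Eif3k, Eif4e, Eif4enif1 and Eef1akmt2 were added after the values were seen. The relation to ribosomal proteins, the 1-sided counts, the dye comparison, the filter of the array-level fit and the choice of promoters were also made after the values were seen. A first motif search ran over all genes, and was then narrowed to protein-coding ones. Alternatives were the scanner tables (plain subtraction or normexp with offset 50, loess span 0.3 or median centring), recentring, filters on missing values and dim probes, an array-level fit, a replicate block, replicates 1 and 2 or 3 and 4 alone, averaged probes, and leaving out each pair. The number of arrays and pairs, the values missing from them and the low agreement between pairs limit precision. Over all probes, the median r between pairs of the same time was 0.086, -0.002 and -0.004 at 18, 72 and 192 h. The dye orientations of a pair correlated at r of -0.418 (192 h pair 3) to 0.628 (192 h pair 1), below 0 in most pairs.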

Additional observations from a re-analysis of the deposited data

Results flagged for a closer look

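Eif2b1 was below 0 in both measured pairs at 18 h (mean -0.05, n = 2) and above 0 in all 3 measured pairs at 72 h (mean 0.07, n = 3), a difference of 0.118 on the log2 scale. The groups do not overlap, but the share of all probes with such a split was not computed. The difference was not tested because the probe had no pair at 192 h and too few at 18 h. In the scanner tables the 72 h pairs lay on both sides of 0.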

How the results depend on the processing

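No member was called where it could be tested, but replicates 1 and 2 alone left 1 member to test and replicates 3 and 4 alone left 0. Filters on other probes cannot move a probe's own value, and the dim-probe filter kept the same 1362 probes. Recentring turned no tested member's sign. The signs below turned, none of them called, and the cause was not tested. Median centring turned the largest differences too (Eif3d -0.18 and -0.19, Eif3m -0.23 and -0.20 as reported, for 192 minus 18 h and 192 minus 72 h). With scanner tables and loess the mean of the times was -0.0297 for Eif3m. With normexp Eif3d was -0.0444 at 18 h, Eif3m -0.0132 at 72 h, and the means were -0.0444 for Eif3d and -0.0494 for Eif3m. With median centring Eif3d was -0.0768, -0.11 and 0.12 at 18, 72 and 192 h, with a mean of -0.0225 and differences of -0.0302 (72 minus 18 h), 0.19 (192 minus 18 h) and 0.22 (192 minus 72 h). Eif3m was then -0.0226, -0.12 and 0.00023, with a mean of -0.0484 and differences of 0.0229 (192 minus 18 h) and 0.12 (192 minus 72 h), and Eif3e was -0.23 at 72 h. In the array-level fit 72 minus 18 h was 0.0241 for Eif3m and 0.0164 for Eif3e. From replicates 1 and 2 alone Eif3e was -0.0789 at 18 h, -0.0107 at 72 h and 0.0682 for 72 minus 18 h.

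Leaving out each pair in turn, Eif3e ranged from -0.0212 to 0.0901 at 18 h, -0.0107 to 0.0280 at 72 h and -0.0058 to 0.22 at 192 h, the lowest without 192 h pair 1. Its 72 minus 18 h value ranged from -0.0878 to 0.0235, 192 minus 18 h from -0.0411 to 0.18, and 192 minus 72 h from -0.0081 to 0.22. The mean of Eif3m ranged from -0.0203 to 0.0344 and its 72 minus 18 h value from -0.0769 to 0.0337, and 72 minus 18 h for Eif3d from -0.0669 to 0.0846.

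The median of the members moved to 0.0413 (loess) and -0.11 (median centring) at 72 h, and to 0.0459 at 18 h with normexp. Without a filter on missing values, limma called 1 probe at 72 h, 2 at 192 h, 3 in the mean, 2 in 192 minus 18 h and 3 in 192 minus 72 h, of 4766. Leaving out pairs gave 0 to 1 in the mean of the times, the 1 without 72 h pair 4. Same-numbered pairs of different times had correlated deviations of -0.318 to 0.492 (median 0.054), so the numbers were not taken to pair samples. With the replicate block 1 probe was called in the mean of the times, and Eif3m was 0.0124 for 72 minus 18 h. Against the deposited ratios, sizes in the scanner tables were larger for some members and smaller for others. Eif3c at 72 h had -0.44 with loess and -0.71 with normexp, and Eif4h at 18 h -0.30 and -0.55, whereas with loess Eif3d had 0.06 at 18 h and 0.07 at 72 h, and Eif3m 0.08 and 0.04.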
